A study of Mus musculus with 14 samples.

Results

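The RUNX1 peak list of hematopoietic progenitors (HPs) held 977 peaks, and 382 of them (39.1%, exact 95% interval 36.0 to 42.2) were distal regions. A peak was distal when its centre lay more than 2 kb from the transcription start site (TSS) of every curated RefSeq coding transcript on the mouse genome mm10 (GRCm38), and the other 595 peaks are called promoter regions. The peaks came from chromatin immunoprecipitation sequencing (ChIP-seq), in which DNA crosslinked to a transcription factor (TF) is recovered with an antibody and sequenced, and each deposited peak was 400 bp wide around its summit. HPs were CD41+ cells differentiated in culture from a mouse embryonic stem cell line (strain 129) that carries a GFP reporter at Brachyury. The other lists used here came from the same reporter line: 5 further HP lists (PU.1, which is encoded by Spi1, C/EBPβ, GATA1, GATA2 and GFI1B), 3 lists from macrophages (MAC, CD11b+ cells differentiated from CD41+ cells; PU.1, C/EBPβ and RUNX1), 2 from mesoderm (MES, Brachyury-GFP+ and Flk1-; C/EBPβ and ELK4), 2 from hemangioblasts (HB, Brachyury-GFP+ and Flk1+; C/EBPβ and GATA2) and 1 from hemogenic endothelium (HE, Tie2+, cKit+ and CD41-; C/EBPβ). The labels name no treatment and no allele other than the reporter for any of these populations.

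Each group was 1 list, so there were no replicates. The tests below compare peaks of the RUNX1 list with one another or with the genome beside them, and not conditions, and the intervals cover counting error only. The lists held between 72 peaks (MAC RUNX1) and 82866 peaks (MAC PU.1), and the authors set the calling threshold of each list by eye, so a region absent from a list may still have been bound. The paper checked enrichment at selected regions by PCR before sequencing. It gives no enrichment for MAC RUNX1, HB GATA2, HB C/EBPβ and MES C/EBPβ, which were sequenced all the same. The files give positions without heights, so the depth behind each peak is unknown, and the sorted populations were not checked here against expressed markers.

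RUNX1 is the DNA-binding subunit of a heterodimer with CBFβ and reads sequences such as TGTGGTT. It is required for blood cells to arise from hemogenic endothelium and, later, for megakaryocytes and lymphocytes. Distal binding sites of such factors often lie in enhancers, stretches of DNA that act on a promoter from a distance and are read by several TFs at once. In progenitors these include the zinc finger proteins GATA1 and GATA2, the repressor GFI1B, the ETS factor PU.1 of the myeloid lineage and the leucine zipper protein C/EBPβ.

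Stretches of 80 bases from 5 distal regions are printed first because they show the forms that recur below. They are from the mm10 RefSeq sequence, plus strand, and capitals mark the RUNX consensus (TGTGGTT, read as AACCACA on the other strand) and the GATA consensus (AGATAA, read as TTATCT). The first lies in an intron of Evi5, 33521 bp upstream of Gfi1, at chr5:107759248-107759327, and carries a RUNX consensus. The next lies in an intron of Runx1, 3804 bp downstream of a Runx1 TSS, at chr16:92822132-92822211, and carries a RUNX consensus as well. The other 3 come from regions listed for at least 4 of the 5 other HP factors and hold a GATA consensus but no full RUNX consensus. They lie in introns of Ahi1 (chr10:21054894-21054973) and Mdga1 (chr17:29860044-29860123), and 6411 bp downstream of the Polr2e TSS in intergenic sequence (chr10:80033209-80033288).
Gfi1 upstream region: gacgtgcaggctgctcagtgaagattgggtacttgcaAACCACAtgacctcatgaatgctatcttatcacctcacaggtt
Runx1 intron region: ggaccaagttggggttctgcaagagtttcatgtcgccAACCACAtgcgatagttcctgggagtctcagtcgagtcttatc
Ahi1 intron region: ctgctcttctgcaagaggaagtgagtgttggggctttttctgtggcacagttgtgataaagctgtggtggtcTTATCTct
Mdga1 intron region: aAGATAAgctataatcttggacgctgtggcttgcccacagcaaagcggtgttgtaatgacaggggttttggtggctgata
Polr2e downstream region: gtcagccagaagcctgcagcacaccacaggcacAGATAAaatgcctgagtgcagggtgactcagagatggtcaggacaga
The Ahi1 and Polr2e stretches each hold 1 copy of the shorter string TGTGGT on one of the strands, and the Mdga1 stretch holds none.

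Introns were the most common position of distal RUNX1 regions, and the regions lay nearer to genes than the distal genome as a whole. The centre fell in an intron of a coding gene in 185 regions (48.4%, 43.3 to 53.6), in intergenic sequence in 126 (33.0%, 28.3 to 37.9), in another annotated gene, mostly a noncoding one, in 57 (14.9%, 11.5 to 18.9), in coding sequence in 10 (2.62%) and in an untranslated region (UTR) in 4 (1.05%). For comparison, every gap-free 400-bp window of the genome was classed in the same way, and of the 6397110 windows that were distal 34.0% were intronic and 53.9% intergenic. The intron share was not particular to RUNX1. Distal peaks of the other HP lists were intronic at 50.8% (GATA1), 48.9% (PU.1), 46.6% (GFI1B), 44.0% (GATA2) and 41.2% (C/EBPβ). Of the intronic regions, 67 (36.2%) lay in the first intron of the gene. The gene that held the intron was also the gene with the nearest coding TSS for 146 intronic regions (78.9%) and another gene for 39.

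The median distance from a region's centre to the nearest coding TSS was 20919 bp (quartiles 8181 and 49556 bp), against 78867 bp for distal windows. At 2 to 10 kb lay 115 regions (30.1%, against 11.5% of windows), at 10 to 50 kb 172 (45.0%, against 28.7%), at 50 to 100 kb 61 (16.0%, against 14.9%) and beyond 100 kb 34 (8.90%, against 44.9%). Regions downstream of the nearest TSS (225) outnumbered those upstream (157). Just inside the limit lay regions in introns of Bid (2010 bp) and Ywhaz (2031 bp), and just outside it a peak near Tac4 (1888 bp). When noncoding and predicted transcripts were also considered, 71 of the 382 regions lay within 2 kb of some annotated TSS, and 35 of these lay within 2 kb of a predicted coding TSS.

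**Figure D1:**
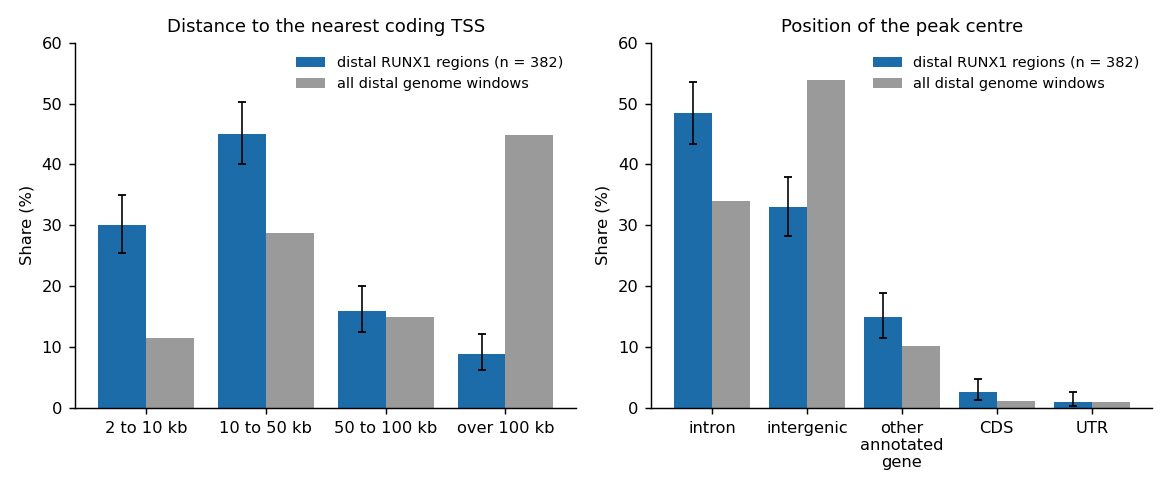
Share of the 382 distal RUNX1 regions (blue, exact 95% intervals) and of all distal 400-bp genome windows (grey), by distance to the nearest coding TSS on the left and by position of the centre on the right. Introns held 48.4% of regions and 34.0% of windows, and 8.90% of regions against 44.9% of windows lay beyond 100 kb.

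The sequence of distal regions differed in composition from that of promoter regions. The median GC content was 53.2% (quartiles 49.5 and 58.0) in distal and 64.2% (59.9 and 69.0) in promoter regions, with a median of 41.2% over distal windows. The median ratio of observed to expected CpG dinucleotides was 0.254 in distal and 0.845 in promoter regions. Repeats were scarce, with a median masked share of 6.0% of the bases, and only 4 regions were masked over more than 50% of their length. Within 500 bp of a tRNA gene lay 3 regions, and 11 belonged to merged regions found in at least 7 of the 14 lists.

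The question of which other factors share these regions was addressed first within HPs. At least 1 of the other 5 HP factors was listed at 229 distal regions (59.9%, 54.8 to 64.9) and at 169 promoter regions (28.4%, 24.8 to 32.2). An overlap was counted when peaks shared at least 1 bp. Each share below stands beside the share of all 977 HP RUNX1 peaks, and each difference was tested by a two-sided Fisher's exact test with Benjamini-Hochberg adjustment for the 13 other lists.

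PU.1 was listed at 115 distal regions (30.1%, 25.5 to 35.0) and at 13.4% of promoter regions, beside 20.0% of all peaks (adjusted exact p = 1.6e-09). GFI1B was listed at 109 (28.5%, 24.1 to 33.3) against 11.1%, beside 17.9% of all (adjusted exact p = 5.2e-11). GATA2, which sustains stem and progenitor cells, was listed at 68 (17.8%, 14.1 to 22.0) against 3.70%, beside 9.21% (adjusted exact p = 2.6e-12). GATA1, which drives erythroid and megakaryocyte genes, was listed at 54 (14.1%, 10.8 to 18) against 2.35%, beside 6.96% (adjusted exact p = 1.9e-11). In odds, the difference was 6.83-fold for GATA1 (95% interval 3.67 to 13.5), 5.64-fold for GATA2 (3.36 to 9.76), 3.20-fold for GFI1B (2.25 to 4.56) and 2.77-fold for PU.1 (1.99 to 3.88). These 4 differences kept their direction and their call in all 8 alternatives run. The other HP lists were themselves more distal than RUNX1 (39.1%). Distal were 76.4% of GATA1, 72.8% of GATA2, 57.7% of GFI1B, 81.7% of PU.1 and 71.2% of C/EBPβ peaks. The part of this in the differences was not tested. C/EBPβ was listed at 37 distal regions (9.69%, 6.91 to 13.1) against 6.05% of promoter regions, beside 7.47% of all, which missed the threshold (adjusted exact p = 0.0590) and passed it in 4 of 8 alternatives (adjusted exact p from 0.0248 to 0.144).

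Because the lists differ in length, the same overlaps make up different shares of the other lists. Distal RUNX1 regions were overlapped by 21.6% of the 250 GATA1 peaks, 12.8% of the 530 GATA2 peaks, 5.40% of the 2018 GFI1B peaks, 1.36% of the 2716 C/EBPβ peaks and 1.05% of the 10943 PU.1 peaks. Among distal peaks alone the share was 28.3% for GATA1 (54 of 191), 17.6% for GATA2, 9.27% for GFI1B, 1.91% for C/EBPβ and 1.29% for PU.1. Where peaks overlapped at distal regions, the centres of GATA1 and GATA2 peaks lay at a median of 41.0 and 44.0 bp from the RUNX1 centre, against 57.0 bp for GFI1B, 65.0 bp for PU.1 and 69.0 bp for C/EBPβ. The centres of 36 of the 54 GATA1 peaks lay within 50 bp.

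**Figure D2:**
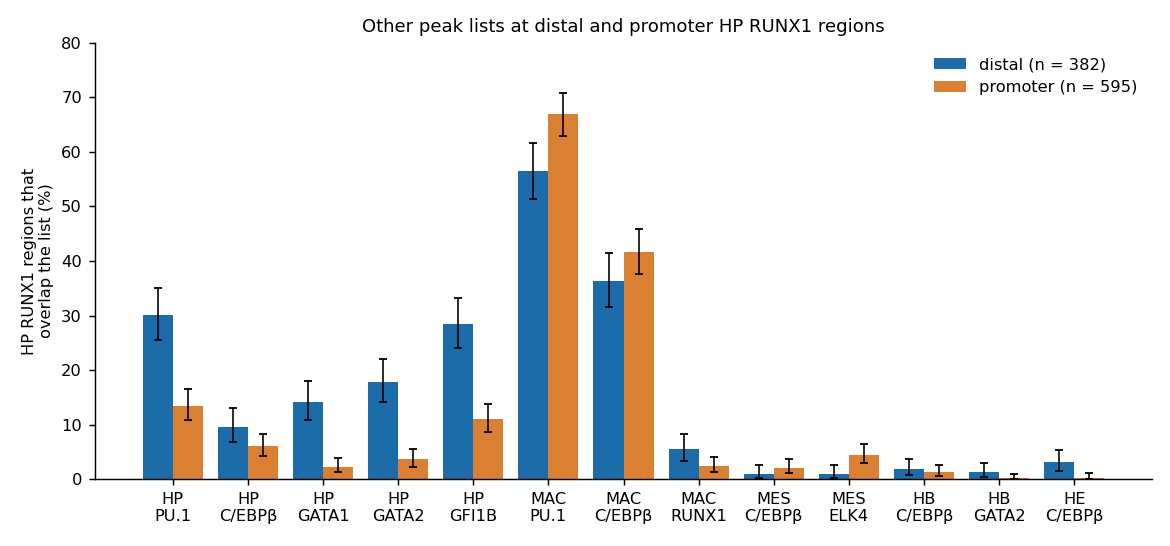
Share of the 382 distal (blue) and 595 promoter (orange) HP RUNX1 regions that overlap each of the 13 other lists, with exact 95% intervals. PU.1, GATA1, GATA2 and GFI1B of HPs stand higher at distal regions, and the MAC PU.1 list stands higher at promoter regions (66.9% against 56.5%).

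The distal regions divided into many small groups by the factors listed there. No other HP factor was listed at 153 regions, 1 at 131, 2 at 58, 3 at 28, 4 at 8 and all 5 at 4. PU.1 alone was found at 60 regions, GFI1B alone at 37, and both together without a further factor at 23. GATA1 or GATA2 was listed at 87 regions and both at 35, of which 26 also had GFI1B. The set of GATA1, GATA2 and GFI1B without PU.1 or C/EBPβ took 14 regions, the largest of the combinations of 3 factors. In none of the other 13 lists, of any stage, were 73 distal regions (19.1%, 15.3 to 23.4). This share was not taken over promoter regions or all RUNX1 peaks, so it cannot be called particular to distal regions.

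**Figure D3:**
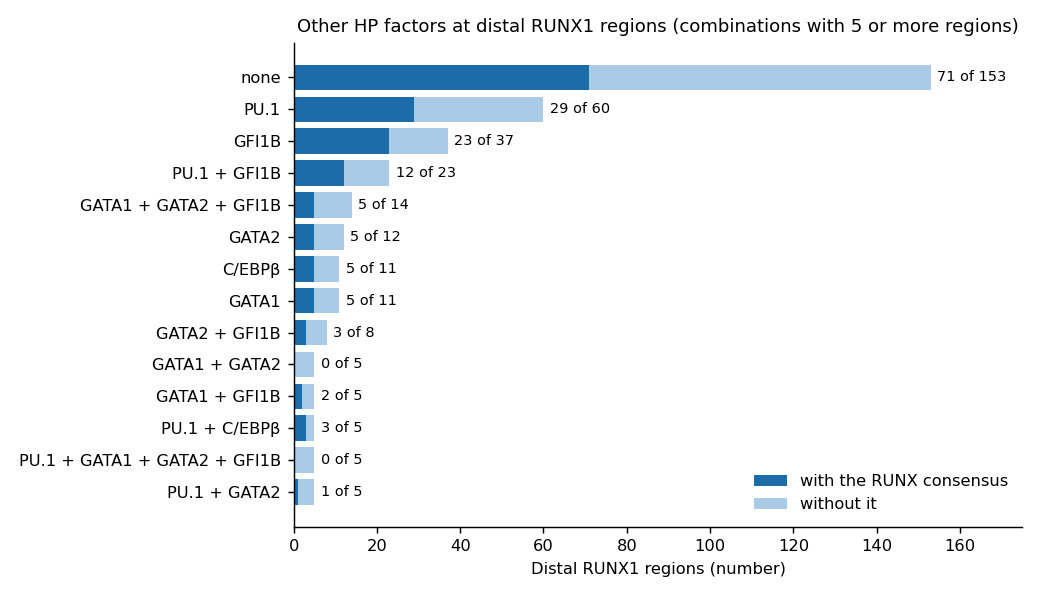
Number of distal RUNX1 regions by the other HP factors listed there, for combinations with at least 5 regions, with the regions that hold the RUNX consensus in dark blue. The RUNX consensus was present in 71 of 153 regions with no other factor, in 23 of 37 with GFI1B alone and in none of the 5 with PU.1, GATA1, GATA2 and GFI1B.

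To see which sequences the distal regions carry, 8 consensus strings were searched on both strands in each region, in the 400-bp windows 2 kb to either side and in all distal windows of the genome. These were TGTGGTT for RUNX, GAGGAAGT for PU.1, AGATAA for the GATA factors, TTGCNNAA for C/EBP, AATCNNNGC for GFI1, CAGATG for the E-box, CCGGAAGT for ELK4 and, for AP-1, TGA and TCA with any 1 base between them. N stands for any base. The PU.1 and ELK4 strings share the letters GGAAGT. A match is a run of letters and not a measured site. The tests against flanks pooled all flanking windows and did not pair each region with its own.

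The RUNX consensus was present in 174 distal regions (45.5%, 40.5 to 50.7), in 11.1% of the flanking windows and in 9.13% of distal windows (Fisher's exact test, adjusted over 8 strings, p = 1.5e-36 against flanks). The PU.1 consensus was present in 8.38% against 1.70% of flanks (adjusted exact p = 5.9e-07) and 2.43% of windows. The GATA consensus was present in 116 regions (30.4%, 25.8 to 35.2) against 20.3% of flanks (adjusted exact p = 5.8e-04), and over all distal windows, which are poorer in GC, the share was 25.2%. The GFI1 consensus was less frequent than in flanks, at 12% against 18.7% (adjusted exact p = 0.00808; 13.3% of windows). The remaining strings missed the threshold against flanks: C/EBP 13.6% against 12.8% (18.1% of windows), AP-1 14.9% against 11.1% (11.7% of windows), E-box, the string read by TAL1 and its partners, 33.5% against 29.3% (28.2% of windows), and ELK4 1.57% against 0.393% (0.220% of windows). The lowest of their adjusted exact p-values was 0.0947. With the shorter string TGTGGT, chosen after the sequences above had been seen, the RUNX share was 70.2% against 30.8% of flanks. With the looser string TGNGGT it was 91.4% against 65.3%.

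Against promoter regions the contrast was larger for several strings. The RUNX consensus was present in 13.8% of promoter regions (adjusted exact p = 6.5e-27), a difference of 31.8 percentage points. The size of this difference depended on the string. With TGTGGT the shares were 70.2% of distal and 32.3% of promoter regions (adjusted exact p = 1.7e-30). With TGNGGT they were 91.4% and 83.4%, a difference of 8.00 percentage points (adjusted exact p = 5.7e-04). GATA was at 6.89% (adjusted exact p = 1.9e-21), E-box at 13.1% (adjusted exact p = 1.6e-13), AP-1 at 4.87% (adjusted exact p = 1.8e-07) and PU.1 at 4.03% (adjusted exact p = 0.00913), each lower than in distal regions. ELK4 went the other way, at 12.4% of promoter and 1.57% of distal regions (adjusted exact p = 8.7e-11). C/EBP and GFI1 missed the threshold (adjusted exact p = 0.0885 and 1.00). The composition of both sets differs as given above, and its part in these differences was not tested.

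Matches to the RUNX consensus were gathered at the centre of both distal and promoter regions. In distal regions there were 219 matches, with 136 regions holding 1 and 38 holding at least 2, and 151 of the 219 (68.9%, 62.4 to 75) lay within 50 bp of the centre, where an even spread would put 25%. In promoter regions 58 of 86 matches (67.4%, 56.5 to 77.2) lay there. In distal regions the share for PU.1 was 45.7% (16 of 35 matches) and for GATA 40.0% (56 of 140). C/EBP (16.1%), GFI1 (21.7%), AP-1 (26.6%) and E-box (24.8%) had intervals that included 25%, as did ELK4 with 7 matches. The distal peaks of the other HP lists held the RUNX consensus in 13.6% (PU.1) to 20.7% (GFI1B) of cases, with GATA1 at 14.7%, GATA2 at 15.3% and C/EBPβ at 15.5%.

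**Figure D4:**
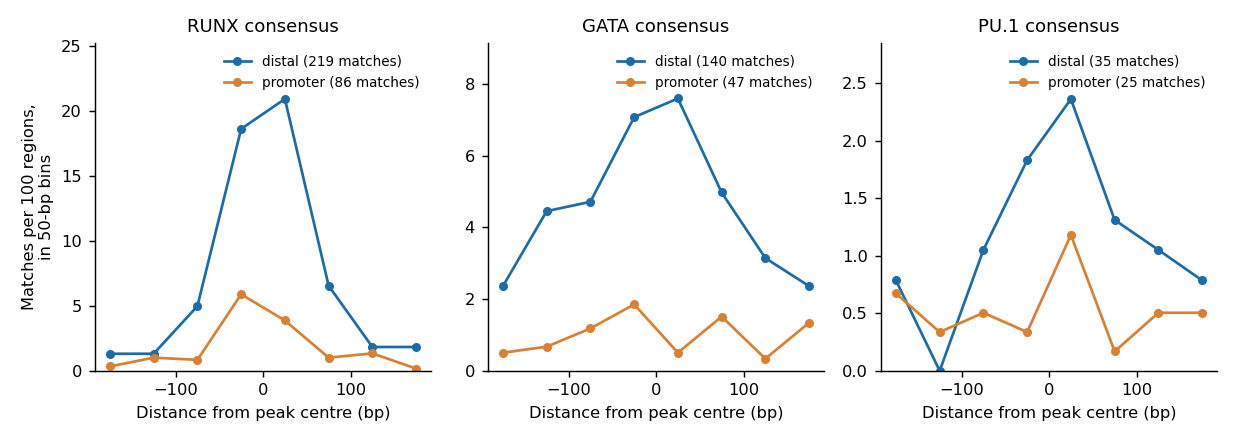
Matches to the RUNX, GATA and PU.1 consensus per 100 regions, in bins of 50 bp by distance from the peak centre, in distal (blue) and promoter (orange) HP RUNX1 regions. The RUNX consensus reached 20.9 matches per 100 distal regions in the bin just right of the centre and 1.31 in the leftmost bin, and the vertical scales differ between panels.

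Whether the consensus of another factor accompanied its peak was then compared within the distal regions. All 5 comparisons passed the test (Fisher's exact test, adjusted over 5). The GATA consensus was present in 44 of 68 regions with GATA2 (64.7%, 52.2 to 75.9) and in 22.9% of those without (adjusted exact p = 6.0e-10), and in 32 of 54 with GATA1 (59.3%, 45.0 to 72.4) and 25.6% without (adjusted exact p = 2.9e-06). The PU.1 consensus was present in 25 of 115 regions with PU.1 (21.7%, 14.6 to 30.4) and in 2.62% without (adjusted exact p = 1.5e-08). The C/EBP consensus was present in 16 of 37 with C/EBPβ (43.2%, 27.1 to 60.5) and in 10.4% without (adjusted exact p = 2.9e-06). The GFI1 consensus was present in 23 of 109 with GFI1B (21.1%, 13.9 to 30.0) and in 8.42% without (adjusted exact p = 0.00141), and this call was lost when only the central 200 bp were searched (5.50% against 2.20%, adjusted exact p = 0.109, range over its 5 alternatives 3.0e-04 to 0.109).

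The RUNX consensus itself was about as frequent in regions with PU.1 (46.1%) as in those without (45.3%), and the same held for GFI1B (47.7% against 44.7%) and for any other HP factor (45.0% against 46.4%). The adjusted exact p was 0.911 for each, with 95% intervals for the odds of 0.649 to 1.64, 0.705 to 1.81 and 0.613 to 1.45. It was less frequent with GATA2, at 20 of 68 (29.4%, 19.0 to 41.7) against 49.0% (adjusted exact p = 0.0190), and with GATA1, at 16 of 54 (29.6%, 18 to 43.6) against 48.2% (adjusted exact p = 0.0365). Both calls depended on a few regions and on the string. Without regions found in at least 7 lists the shares were 32.2% against 49.4% for GATA2 (adjusted exact p = 0.0958) and 32.6% against 48.6% for GATA1 (adjusted exact p = 0.172), and the calls were also lost with TGNGGT (adjusted exact p = 0.174 for both) and with TGTGGT (0.115 and 0.222), with ranges over 8 alternatives of 0.00898 to 0.174 for GATA2 and 0.0193 to 0.222 for GATA1. With TGTGGT the share in regions with PU.1 was higher, at 80% against 65.9% (adjusted exact p = 0.0427, range 0.0427 to 1.00). With C/EBPβ the RUNX share was 32.4% against 47.0% and missed the threshold (adjusted exact p = 0.235).

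**Figure D5:**
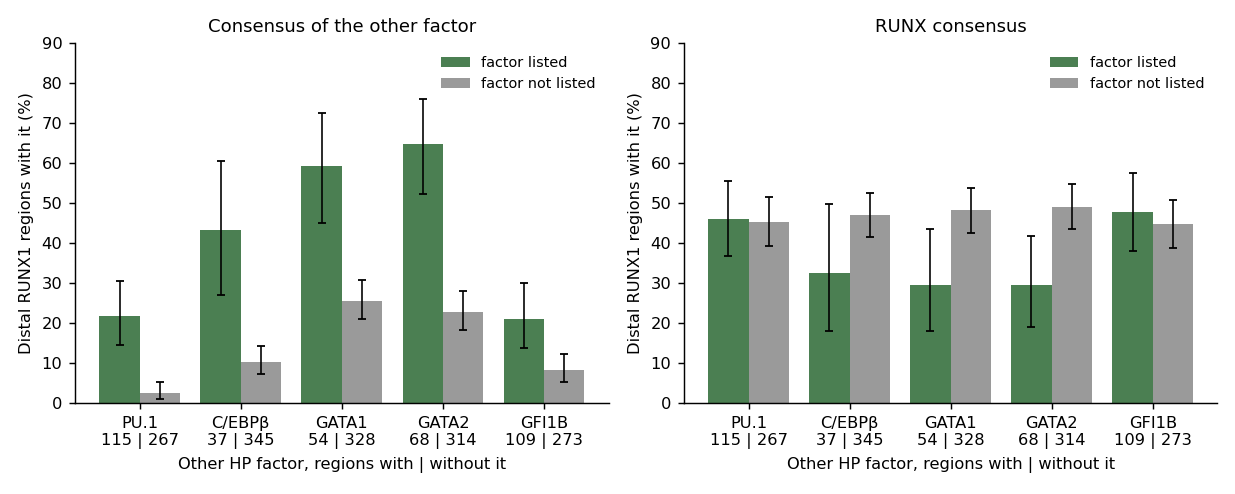
Share of distal RUNX1 regions that hold the consensus of the other factor (left) or the RUNX consensus (right), where that HP factor was listed (green) and where it was not (grey), with exact 95% intervals and the numbers of regions under each pair. The GATA consensus stood at 64.7% with GATA2 and 22.9% without, and the RUNX consensus at 29.4% and 49.0%.

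The consensus letters of RUNX and GATA also divided the regions by how often a GATA factor was listed, which is given as a description. GATA1 or GATA2 was listed at 35 of 60 regions with the GATA but not the RUNX consensus (58.3%), at 16 of 56 with both (28.6%), at 23 of 148 with neither (15.5%) and at 13 of 118 with the RUNX consensus alone (11.0%).

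In macrophages, which arise from CD41+ cells, many of the regions were listed for PU.1 and C/EBPβ. MAC PU.1 was listed at 216 distal regions (56.5%, 51.4 to 61.6) against 66.9% of promoter regions, beside 62.8% of all HP RUNX1 peaks (adjusted exact p = 0.00306). With a required overlap of 200 bp the shares were 45.5% and 49.1% and the call was lost (adjusted exact p = 0.382, range over 8 alternatives 0.00130 to 0.382). MAC C/EBPβ was listed at 139 (36.4%, 31.6 to 41.4) against 41.7%, beside 39.6% (adjusted exact p = 0.127). Both PU.1 and C/EBPβ of MACs were listed at 107 regions (28.0%) and none of the 3 MAC lists at 133 (34.8%, 30.0 to 39.8). These 2 shares were not taken over promoter regions or all HP RUNX1 peaks, so they cannot be called particular to distal regions. The overlaps took up 0.262% of the MAC PU.1 list and 0.251% of the MAC C/EBPβ list.

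The shares in MACs were then split by the factors listed in HPs, as a description. Of the 115 regions with PU.1 in HPs, 106 (92.2%, 85.7 to 96.4) had PU.1 in MACs, and of the 267 without it 110 (41.2%, 35.2 to 47.4) did. The share with HP PU.1 was slightly below that of all distal HP PU.1 peaks (96.8%, 8656 of 8945) and of promoter RUNX1 regions with HP PU.1 (95%), and these differences were not tested. Distal peaks of other HP lists that likewise lacked HP PU.1 had MAC PU.1 in 20.4% (GATA1), 23.2% (GFI1B) and 31.9% (GATA2) of cases, and promoter RUNX1 regions that lacked it in 62.5% (322 of 515). This split was not made for HP C/EBPβ, whose distal peaks, with or without HP PU.1, had MAC PU.1 in 50.4% of cases. Of the 37 regions with C/EBPβ in HPs, 35 (94.6%, 81.8 to 99.3) had it in MACs, against 104 of 345 (30.1%, 25.3 to 35.3) without, while all distal HP C/EBPβ peaks had it in 90.2% of cases (1744 of 1934) and promoter RUNX1 regions with HP C/EBPβ in 97.2%. Promoter RUNX1 regions without HP C/EBPβ had it in 38.1%. Across factors, MAC C/EBPβ was listed at 51.3% of distal regions with HP PU.1 and 30.0% of those without, and MAC PU.1 at 70.3% (53.0 to 84.1) of those with HP C/EBPβ and 55.1% (49.7 to 60.4) of those without. These shares were not tested across stages, since list lengths were set by the calling threshold.

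MAC RUNX1, a list of 72 peaks, shared 21 distal regions (5.50%, 3.43 to 8.28) and 2.52% of promoter regions, beside 3.68% of all HP RUNX1 peaks (adjusted exact p = 0.0366). The call was lost in 4 of 8 alternatives, among them the one without regions found in at least 7 lists (4.58% against 2.38%, adjusted exact p = 0.128, the highest of a range from 0.0246). The MAC RUNX1 list is among those without enrichment in the paper's PCR check, so a region absent from it may still have been bound. The 21 regions made up 29.2% of the MAC RUNX1 list, and the centres of the peaks of both stages lay a median of 25 bp apart. All 21 were listed for at least 1 other HP factor, 15 of them for PU.1, 19 had PU.1 in MACs, 13 were intronic and 14 held the RUNX consensus. Examples are an intron of Selp, which encodes P-selectin, 16231 bp upstream of F5 (chr1:164135405-164135804), an intron of Rara, the retinoic acid receptor α gene (chr11:98942057-98942456), intergenic sequence 6920 bp upstream of the lamin gene Lmna (chr3:88510073-88510472) and 29164 bp upstream of the transglutaminase gene Tgm2 (chr2:158175357-158175756). The shared regions in introns of Cfdp1, of Ssh1 (nearest to Coro1c) and of Rere (nearest to Slc45a1) were listed for PU.1 and C/EBPβ in MACs, and that near Nanos3 for these factors and for ELK4 in MES.

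The lists of earlier stages overlapped few of the regions. Among them, MES C/EBPβ, HB C/EBPβ and HB GATA2 had no enrichment in the paper's PCR check. MES C/EBPβ and MES ELK4 each shared 4 distal regions (1.05%), against 2.18% and 4.54% of promoter regions and beside 1.74% and 3.17% of all HP RUNX1 peaks, and the difference passed the exact test for ELK4 only (adjusted exact p = 0.00413). HB C/EBPβ shared 7 (1.83%, beside 1.54%) and HB GATA2 5 (1.31%, beside 0.614%) (adjusted exact p = 0.599 and 0.0527). HB GATA2 passed in 5 of its 8 alternatives (adjusted exact p from 0.0286 to 0.610). HE C/EBPβ shared 12 distal regions (3.14%) against 0.336% of promoter regions, beside 1.43% (adjusted exact p = 0.00113), and the call was lost when noncoding and predicted TSS also counted (adjusted exact p = 0.101, range over 8 alternatives 1.9e-04 to 0.101). The HE immunoprecipitation used few cells, with carrier mRNA and histone added. Of the 12 regions shared with it, 2 held the RUNX consensus (16.7%, against 46.5% of the other 370). None of the 12 was intronic, against 185 of the 370, and 2 lay near a tRNA gene. Their median CpG ratio was 0.694 against 0.250 in the other 370.

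Regions listed for at least 4 of the other 5 HP factors numbered 12, and 1 of them held the RUNX consensus. Those with all 5 were the region upstream of Gfi1 (chr5:107759127-107759526), which was found in 10 of the other 13 lists, and 3 further regions. One lay 26438 bp downstream of Rpp21 (chr17:36231209-36231608) and was found in all 13 other lists, one in the noncoding gene AY036118 (chr17:39848464-39848863), found in 10, and one in the noncoding gene Gm36876 (chr11:109011716-109012115), found in 9. These 3 were also listed in HE, were rich in CpG and held neither the RUNX nor the GATA consensus. Whether the presence of these 3 in so many lists reflects binding of each factor was not tested. The regions with 4 factors lay in introns of Ahi1, Mdga1, Micall2, Pigl and Vav1, and in intergenic sequence downstream of Ap1m1, Polr2e and Cebpe. All 8 had GATA1, GATA2 and GFI1B, with PU.1 at 5 of them and C/EBPβ at 3. The region in Ahi1 (chr10:21054734-21055133) held 3 GATA consensus matches, and those near Cebpe and in Micall2 held 2 each. Those in Mdga1 and near Ap1m1 and Polr2e held 1 each, and those in Pigl and Vav1 held none.

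The 382 regions had 359 different coding genes as the nearest by TSS, 1.71% of the 21000 coding genes considered. Of these, 338 had 1 region, 19 had 2 and 2 had 3. The genes with 3 were Itsn1, which encodes an endocytic scaffold protein and held its 3 regions in introns, and Gse1. Within 10 kb of each other lay 11 pairs of neighbouring regions. A promoter RUNX1 region was also nearest to 18 of the 359 genes (5.01%), beside 2.79% of all coding genes. The nearest gene is a label of position, and contacts between regions and genes were not measured here.

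Genes of fixed lists were then set beside the 1.71% over all coding genes. Genes were assigned by nearest TSS. In this way 7 of 36 hematopoietic TF genes had a distal RUNX1 region (19.4%), namely Runx1, Runx3, Gfi1, Lyl1, Cebpe, Zfpm1 and Cbfa2t3, and 2 of the 16 genes of the study's regulatory network did (Runx1 and Gfi1, both also in the TF list). Adhesion and cytoskeleton genes gave 4 of 22 (18.2%), megakaryocyte and platelet genes 2 of 22 (9.09%), lymphoid genes 1 of 15, receptor genes 1 of 19 and endothelial genes 1 of 22. Erythroid genes (14) and macrophage and granulocyte genes (20) had none. Promoter RUNX1 regions were nearest to 5 of the 36 TF genes (13.9%), 2 of the 16 network genes and 1 of the 19 receptor genes. This stands beside 2.79% of all coding genes, and the other lists had no gene nearest to a promoter region. The distal counts leave out regions inside a listed gene but nearer to the TSS of another, which were looked up after the values were seen. These were the region in Selp, a platelet gene, described above and one in the coding sequence of Spi1 (chr2:91115027-91115426), the gene of PU.1 and a member of the TF and network lists. The region in Spi1 lay 2918 bp upstream of Mybpc3, was in no other list and held no RUNX consensus. These lists were drawn up with earlier results of the same data known and were not tested.

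Runx1 had 2 regions, both in an intron of the gene and with different company. The one 24321 bp downstream of the nearest TSS (chr16:92801554-92801953) was listed for PU.1, C/EBPβ and GATA2 in HPs and for PU.1 and C/EBPβ in MACs, and held neither the RUNX nor the GATA consensus. It did hold TGCGGT, a match to the looser RUNX string TGNGGT. The one 3804 bp downstream (chr16:92822071-92822470), whose sequence is printed above, was listed for GATA1, GATA2 and GFI1B and in no MAC list. The region upstream of Gfi1, which encodes a repressor related to GFI1B, was shared with MAC PU.1 and MAC RUNX1 and with HB GATA2. Cbfa2t3 and Zfpm1 encode ETO2 and FOG1, cofactors that work with GATA1. The region 20897 bp upstream of Cbfa2t3 (chr8:122719807-122720206) had GATA1, GATA2 and GFI1B together with both consensus sequences, and that in an intron of Zfpm1 (chr8:122314875-122315274) had PU.1 and GFI1B.

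The region in an intron of Lyl1, which encodes a relative of TAL1, held 3 RUNX consensus matches and was listed for GATA1 in HPs and for RUNX1 and C/EBPβ in MACs (chr8:84703360-84703759). That near Cebpe, a regulator of granulocyte maturation, lay 6069 bp downstream of the TSS (chr14:54705906-54706305) and had C/EBPβ with GATA1, GATA2 and GFI1B. The region 50668 bp upstream of Runx3 (chr4:135069778-135070177) had PU.1 in HPs and in MACs.

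Among platelet genes, Itgb3, whose product pairs with CD41 to form the platelet fibrinogen receptor, had an intronic region with RUNX and GATA consensus and GFI1B (chr11:104618800-104619199), and the tetraspanin gene Cd9 an intronic region with the RUNX consensus and no other HP factor. The adhesion genes were Tln1 (talin), Flna (filamin A), Vav1 (a signalling protein of blood cells) and Rac2 (a GTPase of blood cells). The regions in Tln1 and Vav1 had PU.1 in HPs and MACs, and those at Flna and Rac2 were in no other list. The remaining list genes were Csf2ra, the GM-CSF receptor α chain, with a region 38137 bp upstream that was also found in HE, Sox7, a TF of endothelium, with PU.1 and GFI1B 14273 bp downstream, and the T cell gene Cd3e with PU.1 11333 bp downstream.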

How the data were processed

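ChIP-seq peak lists of 7 factors in 5 populations (14 lists, 1 per group) were analysed. Per the study's methods, the authors trimmed reads with CutAdapt, aligned them to mm10 with Bowtie, removed duplicates with Picard, called peaks with MACS against the input of the same stage at a p-value threshold judged by eye for each list, refined them with polyPeak and set them to 400 bp around the summit. Tool versions are not given in the sources used here. The deposited values are other than counts or scores: they are the coordinates of both ends of a peak in bp.

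Coding TSS (25999, curated transcripts of 21000 genes), gene models and sequence were taken from RefSeq GRCm38.p6, whose chromosome lengths hold all peaks. Overlap meant at least 1 bp. Shares carry exact Clopper-Pearson 95% intervals. Fisher's exact tests (two-sided) were adjusted by the Benjamini-Hochberg method over 13 lists, 8 strings, 6 or 5 comparisons, at a threshold of 0.05. The members and gene lists were chosen with earlier results of these data known. Named were regions with at least 4 other HP factors, genes with at least 3 regions, genes of the fixed lists, up to 10 regions shared with MAC RUNX1 (by number of lists) and 2 regions on each side of the limit, of which 1 outside it is not reported here. Alternatives changed the distance limit (1 or 5 kb), the TSS set, the overlap (200 bp), the searched window, the RUNX string and the regions kept. Programs were tested on simulated data. Python 3.11.15, NumPy 2.4.6, SciPy 1.17.1 and Matplotlib 3.10.9 were used.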

Additional observations from a re-analysis of the deposited data

How the results depend on the processing

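Of 331 alternative values, 292 kept their direction and their side of the threshold or stayed within their interval. No call of the RUNX consensus with and without other HP factors remained (0 calls, against 2) without regions found in at least 7 lists or with TGNGGT, and 1 was made with TGTGGT, for PU.1. MAC PU.1 was listed at 45.5% of distal regions when 200 bp of overlap were required. Differences that changed sign, all of them past no threshold in either setting, were as follows in percentage points. In the central 200 bp the C/EBP consensus was -0.393 from flanks. The GFI1 consensus, distal minus promoter, was 0.324 without regions in at least 7 lists, 0.0685 without those mostly repeats and 0.144 without those near tRNA genes. The RUNX consensus, with minus without, was -1.99 for PU.1 without regions within 1 kb of any TSS and -1.33 with TGNGGT, -4.60 for GFI1B with TGNGGT and -3.17 with TGTGGT, and for any factor 0.384 without regions in at least 7 lists and 4.73 with TGTGGT. In the central 200 bp the GFI1 consensus was lower in distal than in promoter regions (-3.41, adjusted p = 0.0213, Fisher's exact test, range 0.0213 to 1.00). The cause of these changes was not tested. TGTGGT, curated with predicted TSS, and the exclusions near tRNA genes or any TSS were chosen after seeing the data. Samples could not be paired because each group held 1 list, and no list could be left out for the same reason. The tests against flanks did not use the pairing of each region with its own flanking windows. Without peak heights or read depth, weakly bound regions cannot be told from unbound ones.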

Other observations

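Distal RUNX1 regions were spread unevenly over the chromosomes. Chromosome 8 held 40 of the 382 (10.5%, exact 95% interval 7.59 to 14) and 10.3% of promoter RUNX1 regions, against 4.75% of distal genome windows. The 40 regions held the RUNX consensus in 45.0% of cases and another HP factor in 65.0%, against 45.6% and 59.4% of regions elsewhere. They include those at Lyl1, Zfpm1, Cbfa2t3 and Gse1 named above. The share of distal peaks on chromosome 8 was above 4.75% in 12 of the other 13 lists, from 5.81% in MAC C/EBPβ and 5.98% in MAC PU.1 to 13.6% in HP GATA1 and 17.2% in HB GATA2, and below it in HE C/EBPβ (1.96%, 2 of 102). Chromosome X held 2 distal RUNX1 regions (0.524%, 0.0635 to 1.88), against 6.24% of windows, and between 0% and 1.89% of the distal peaks of the other lists except HB GATA2 (7.53%, 7 of 93). The reason for these shares was not tested.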
